A study of Mus musculus with 12 samples.

Results

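The 11073 MAX-bound regions described here were listed in RAW264.7 cells treated with the BET inhibitor I-BET and in no other treatment, and they lay in the interior of protein-coding genes. They were chosen from the 37124 regions obtained by merging the 4 MAX peak lists, one per treatment. A region was kept when it was overlapped by peaks of the I-BET list and of no other list, overlapped the extent of a protein-coding gene, and lay more than 1 kb from both ends of every protein-coding gene. Of all merged regions, 24827 (66.9%) were listed with I-BET only. Of the 14683 merged regions inside gene bodies, the share was 75.4%. Both shares follow from the rule and are given as description.

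ChIP-seq, in which DNA bound by a protein is pulled down with an antibody and sequenced, was done for MAX and its partner MYC in RAW264.7, an established mouse monocyte and macrophage line whose source the labels give as bone marrow. Crosslinked cells had been kept for 4 h with I-BET at 500 nM, with RANKL at 50 ng/ml, with RANKL and I-BET at those doses, or without either agent. RANKL is the cytokine that turns these cells into osteoclasts, and the question of the design was how the inhibitor alone and with RANKL alters factor binding. Each antibody had 1 library and 1 peak list per treatment, so treatments could not be tested against each other. The MAX list held 36785 peaks with I-BET, 10889 with RANKL, 6307 with both and 8839 in untreated cells. Read depth behind the lists is unknown, and a difference in depth or peak calling between the I-BET library and the others cannot be told apart from the treatment.

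MAX is a basic helix-loop-helix leucine zipper protein. It binds E-box DNA as a dimer with MYC, with the repressive MXD, MNT and MGA proteins, or with itself. BET proteins read acetylated lysines on histones at promoters and enhancers and help RNA polymerase II to elongate, and I-BET compounds fill the pocket that does the reading. The interior of a gene holds introns, enhancers and starts of shorter transcripts, so a peak there can lie at a regulatory element of the host gene or of a neighbour.

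Sequence was examined where a region met a transcript start, because RefSeq start windows (GRCm38.p6, 250 bases before to 50 after a start) were the sequences used here. The windows below are from protein-coding hosts of I-BET-only gene-body regions, and each starts at an internal transcript start, since the outer gene ends were left out by the rule. Lower case is used throughout, with capitals on the canonical E-box CACGTG and on its CG variant CACGCG, which reads CGCGTG on the opposite strand. Both strands were searched.

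Tmem219 (a death receptor for IGFBP3) and Myadm (a myeloid membrane protein) are shown as hosts of 2 of the 10 highest-scoring regions. The Tmem219 window (chr7:126898229-126898528, minus strand) held 1 CG variant, and the Myadm window (chr7:3292778-3293077, plus strand) held neither element.
Tmem219: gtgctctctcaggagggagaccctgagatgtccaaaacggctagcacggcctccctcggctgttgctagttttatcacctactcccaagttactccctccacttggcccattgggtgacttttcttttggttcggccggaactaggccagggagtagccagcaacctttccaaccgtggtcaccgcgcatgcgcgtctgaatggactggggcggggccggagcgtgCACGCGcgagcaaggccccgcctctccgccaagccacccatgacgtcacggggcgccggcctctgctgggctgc
Myadm: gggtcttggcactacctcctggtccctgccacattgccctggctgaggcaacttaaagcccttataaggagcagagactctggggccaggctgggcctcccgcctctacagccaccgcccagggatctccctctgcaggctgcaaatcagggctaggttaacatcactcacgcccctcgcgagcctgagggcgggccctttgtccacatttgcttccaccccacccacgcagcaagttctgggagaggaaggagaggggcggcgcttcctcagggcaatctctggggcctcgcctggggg

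Tcirg1, the osteoclast subunit of the proton pump that acidifies the bone surface, and Itgav, the integrin alpha chain of the vitronectin receptor, are shown because they serve the lineage that RANKL induces. The Tcirg1 window (chr19:3905181-3905480, minus strand) and the Itgav window (chr2:83724147-83724446, plus strand) held neither element.
Tcirg1: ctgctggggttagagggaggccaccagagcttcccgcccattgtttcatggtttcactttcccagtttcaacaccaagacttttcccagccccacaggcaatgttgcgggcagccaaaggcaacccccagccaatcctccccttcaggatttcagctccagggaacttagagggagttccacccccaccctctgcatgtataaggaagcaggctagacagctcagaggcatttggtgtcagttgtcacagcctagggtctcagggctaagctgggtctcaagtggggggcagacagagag
Itgav: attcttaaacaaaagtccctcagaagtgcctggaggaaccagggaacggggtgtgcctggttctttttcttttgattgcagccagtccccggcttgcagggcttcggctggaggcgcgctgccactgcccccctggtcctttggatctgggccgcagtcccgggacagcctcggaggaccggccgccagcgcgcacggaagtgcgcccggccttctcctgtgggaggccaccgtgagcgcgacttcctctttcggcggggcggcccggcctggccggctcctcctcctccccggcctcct

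Kdm6a, a histone H3 lysine 27 demethylase, and Slc22a4, an organic cation transporter, carried the highest-scoring regions whose host window held CACGTG. The Kdm6a window (chrX:18162325-18162624, plus strand) held 1 CACGTG, and the Slc22a4 window (chr11:54028055-54028354, minus strand) held 1 of each element.
Kdm6a: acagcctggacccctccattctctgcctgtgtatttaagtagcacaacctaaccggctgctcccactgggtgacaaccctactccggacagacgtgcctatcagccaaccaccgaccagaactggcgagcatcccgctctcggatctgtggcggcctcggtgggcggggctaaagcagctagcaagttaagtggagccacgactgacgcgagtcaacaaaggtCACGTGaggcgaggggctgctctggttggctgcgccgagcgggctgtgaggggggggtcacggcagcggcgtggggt
Slc22a4: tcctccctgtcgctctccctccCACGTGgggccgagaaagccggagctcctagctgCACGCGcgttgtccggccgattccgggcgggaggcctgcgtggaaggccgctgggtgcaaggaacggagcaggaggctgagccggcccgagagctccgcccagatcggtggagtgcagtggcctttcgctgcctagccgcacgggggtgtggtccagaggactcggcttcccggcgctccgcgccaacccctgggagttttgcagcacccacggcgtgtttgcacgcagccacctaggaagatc

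For contrast, the window of Dazap1, which encodes an RNA-binding protein, lay under a gene-body region listed in all 4 treatments. It was picked for holding CACGTG, as the best-ranked such region, and 15.4% of windows in that class hold the element. The region had a score of 2600 and rank 35 in the I-BET list, and its window (chr10:80264764-80265063, plus strand) held 1 of each element.
Dazap1: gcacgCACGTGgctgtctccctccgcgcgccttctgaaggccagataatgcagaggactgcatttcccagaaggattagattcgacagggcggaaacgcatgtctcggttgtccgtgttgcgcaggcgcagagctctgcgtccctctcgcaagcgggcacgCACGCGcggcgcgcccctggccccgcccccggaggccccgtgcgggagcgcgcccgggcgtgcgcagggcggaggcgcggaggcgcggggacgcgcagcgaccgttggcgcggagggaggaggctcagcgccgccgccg

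Across all overlapped windows, CACGTG and its CG variant were less frequent at the I-BET-only gene-body regions than at other gene-body regions. In all, 593 of the regions (5.36%, 95% interval 4.94 to 5.79%) overlapped a start window, 499 of them a window of their host and 94 a window of a long non-coding RNA gene. Of gene-body regions with a peak in another treatment 15.4% overlapped one, and of those of all 4 treatments 24.0%. The comparison thus covers a smaller part of the I-BET-only gene-body regions than of the other classes. The 95% intervals are exact Clopper-Pearson intervals and cover counting error only, and windows that share a gene are not independent. CACGTG was found in 41 of the 699 windows at these regions (5.87%, 4.24 to 7.87%), against 2349 of all 32851 windows (7.15%). At windows under gene-body regions that also had a peak in another treatment the share was 11.8% (86 of 731, 9.52 to 14.3%), and at windows under gene-body regions of all 4 treatments it was 15.4% (55 of 358, 11.8 to 19.5%). Windows that met no MAX region held it in 4.84%. The interval at the I-BET-only gene-body regions thus did not meet those of the other gene-body regions and included the values of all windows and of windows without MAX.

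The CG variant gave a wider range. It was held by 8.30% of windows at the I-BET-only gene-body regions (6.36 to 10.6%), 12.4% at I-BET-only gene ends, 21.8% at other gene-body regions, 27.1% at gene-body regions of all 4 treatments, 3.71% of windows without MAX and 9.27% of all windows. Base composition moved with these shares. The median GC content was 57.7% at the I-BET-only gene-body regions, 63.0% at other gene-body regions, 64.3% at gene-body regions of all 4 treatments and 48.3% in windows without MAX. Among windows of 55 to 65% GC, CACGTG was held by 7.17% of windows at the I-BET-only gene-body regions (19 of 265, 4.37 to 11.0%), 14.8% at other gene-body regions, 19.8% at those of all 4 treatments and 6.71% of windows without MAX. For CACGTG the order of these 4 classes was thus the same among windows of similar GC. Of all windows in the band 9.68% held CACGTG and 12.9% the CG variant. The CG variant in that band was held by 7.17% of windows at the I-BET-only gene-body regions (4.37 to 11.0%), 22.0% at other gene-body regions, 26.0% at those of all 4 treatments and 6.37% of windows without MAX. At similar GC the windows at these regions thus lay close to windows without MAX, and their interval for the CG variant lay below the 12.9% of all windows. These values cover only the regions that met a start window. An element in a window need not lie inside the region that met it. When the windows at the I-BET-only gene-body regions were split at the median rank of the region, CACGTG was held by 5.44% above it and 6.29% below it, and the CG variant by 10.9% above it and 5.71% below it.

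Other elements were searched in the same way. The E-box variant CATGTG was found in 11.4% of windows at the I-BET-only gene-body regions and 14.2% of all windows, and the general form CANNTG, which contains all E-boxes of that core including CACGTG, in 67.2% and 72.3%. TGANTCA, the AP-1 site, was found in 6.29% and 7.81%. GAGGAAGT, a purine-rich form bound by the macrophage factor PU.1, was found in 4.43% (3.03 to 6.24%) and 3.20%, so the interval included the value of all windows. CCGGAAGT, a general ETS site, was found in 6.01% (4.36 to 8.04%) and 3.89%. GGGCGGG, the GC box bound by SP1, was found in 38.1% and 25.6%, and in 50.3% at gene-body regions of all 4 treatments. At gene-body regions with a peak in another treatment CATGTG was found in 10.8% and CANNTG in 62.0%. Neither was thus less frequent at the I-BET-only gene-body regions. GAGGAAGT was found there in 3.42% at the regions with a peak in another treatment, CCGGAAGT in 7.11% and GGGCGGG in 46.5%. The median GC content was 57.7% at the I-BET-only gene-body regions and 52.7% over all windows. These other elements were not compared at similar GC. A match is a string of letters and not a shown binding site.

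**Figure D1:**
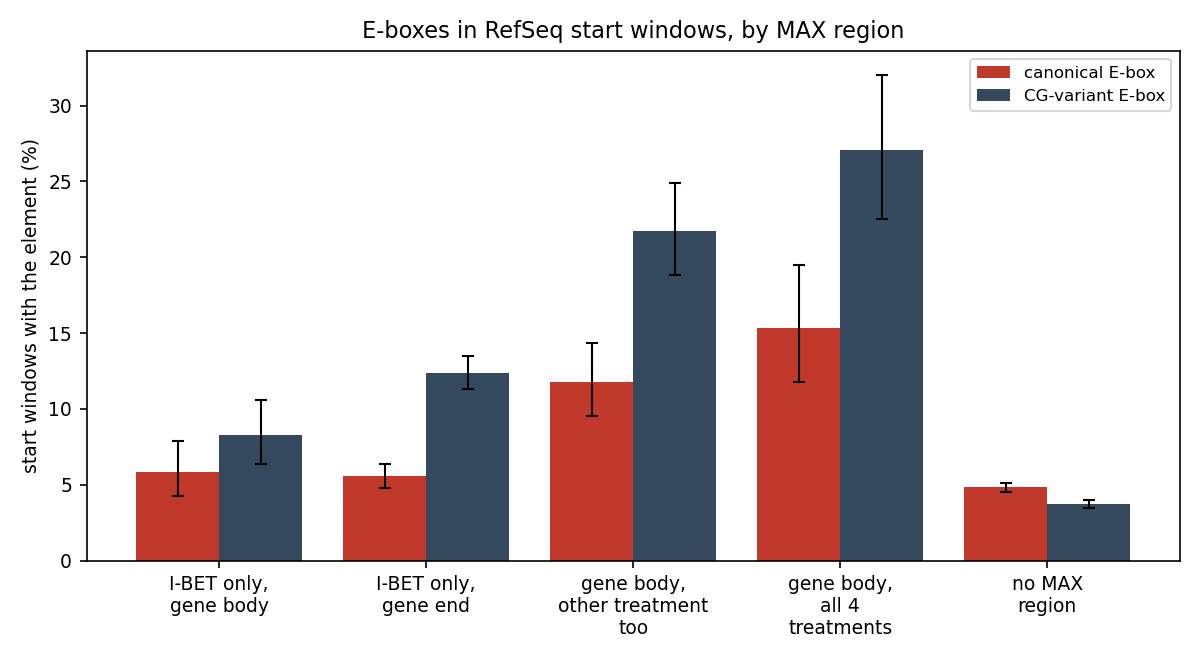
Share of RefSeq start windows holding the canonical E-box (red) or its CG variant (blue), in percent, by the kind of MAX region that overlaps the window; bars are shares and lines are exact 95% intervals. The canonical E-box stood at 5.87% at I-BET-only gene-body regions, against 11.8% at gene-body regions with a peak in another treatment and 4.84% in windows without a MAX region.

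Width, score and rank come from the list that chose the regions and are given as description. Each region was exactly 1 I-BET peak, and together they made up 30.1% of the I-BET list. Their width ran from 203 to 5052 bp with a median of 364 bp and quartiles of 283 and 507 bp. Their deposited score, the authors' own value per peak, ran from 40.3 to 881 with a median of 111, and their median rank was 24906. Gene-body regions with a peak in another treatment had a median width of 665 bp, a median score of 390.3 and a median rank of 8614, and those of all 4 treatments had 838 bp, 651 and 4056. I-BET-only regions outside genes (median width 348 bp, score 109) resembled the gene-body ones, and those at gene ends were wider and higher (547 bp, 160.3). Of the I-BET-only gene-body regions, 3.18% stood in the top 25% of the I-BET list, against 53.4% of other gene-body regions. When the I-BET list was shortened to its 8839 highest-scoring peaks, the length of the untreated list, 302 of the 11073 regions remained, in 293 genes.

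**Figure D2:**
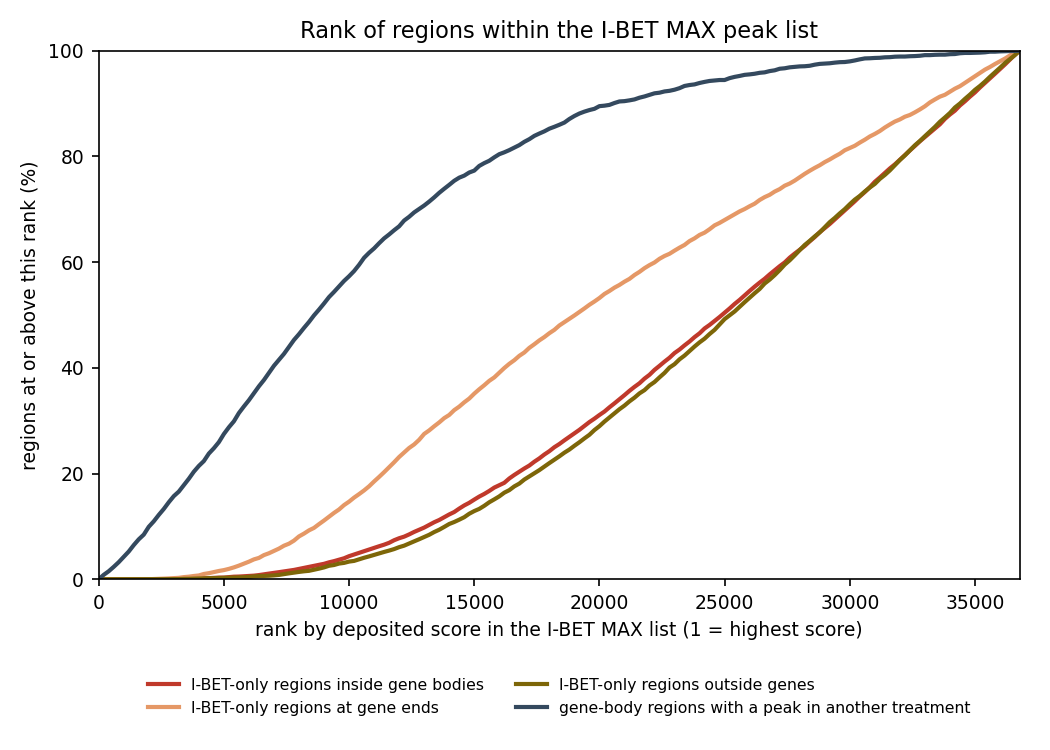
Cumulative share of regions, in percent, by rank of the peak in the I-BET MAX list (1 is the highest score), for 4 classes of region. The I-BET-only regions inside gene bodies follow those outside genes, with median ranks of 24906 and 25215, and gene-body regions with a peak in another treatment rank higher, with a median of 8614.

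The highest-scoring region lay in Fbxo31, a substrate receptor of an SCF ubiquitin ligase (chr8:121573250-121573724), with a score of 881 and rank 2157. The next was in Csk, the kinase that holds Src-family kinases inactive (chr9:57640064-57640919), with a score of 855. Pxn, which encodes the focal adhesion adaptor paxillin, followed with 798 (chr5:115537955-115539026). These scores lay far above the median of 111 and below the highest score of 2917 among gene-body regions with a peak in another treatment.

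Tmem219 and Pstpip1 each had a region with a score of 744, and Pstpip1 encodes an F-BAR adaptor of the actin cytoskeleton in blood cells. Myadm followed with 726, and the nearest MAX peak of any other treatment lay 185550 bp away. The ETS factor gene Fli1 had 720 (chr9:32474817-32475413), the transcriptional coregulator gene Mn1 had 719, the tropomyosin gene Tpm3 had 705 and the heme A synthesis gene Cox10 had 697. The Tpm3 region lay 530 bp from a MAX peak of another treatment, while those in Pxn, Fli1, Mn1 and Cox10 lay 20211, 25415, 16380 and 31245 bp from one. At the gene ends, 8 of these 10 hosts had a MAX peak with I-BET and 2 had one in untreated cells. Among all hosts the shares were 70.2% and 32.2%.

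The widest region, 5052 bp in Gse1, spanned an internal Gse1 start, the start of the long non-coding RNA gene 1700016A09Rik and the microRNA gene Mir7687 (chr8:120535573-120540624, score 489). Next were 2833 bp in Ppp1r18, which encodes a phosphatase-1 regulatory subunit bound to actin, and 2802 bp in Tcirg1 (chr19:3903055-3905856). Slco4a1, an organic anion transporter gene, had a region of 2554 bp and the zinc finger gene Zfp710 one of 2478 bp. Width and score did not go together in all of these: the Tcirg1 region scored 121 and the Slco4a1 region 86.7, close to the median of all the regions. All 5 hosts had a MAX peak at an end with I-BET, and Slco4a1 was the host among them with one in untreated cells. Among all hosts 70.2% had one with I-BET and 32.2% in untreated cells.

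Gene bodies took a larger share of the I-BET-only regions than of the rest in the full lists. Among the top-scored I-BET peaks their share of I-BET-only regions was lower. Of the 24827 I-BET-only regions, 44.6% (44.0 to 45.2%) lay inside gene bodies, 24.3% within 1 kb of a gene end and 31.1% outside genes. Of the 12297 other merged regions, 29.4% (28.6 to 30.2%) lay inside gene bodies, and of the 4792 regions of all 4 treatments 23.0% (21.8 to 24.2%) did. With the I-BET list shortened to its 8839 top-scored peaks, 27.6% (25 to 30.4%) of the I-BET-only regions did. That interval includes the 29.4% of other regions and lies above the interval of regions of all 4 treatments. Both of those shares are from the full lists and were not recomputed with the shortened list. The size of the I-BET-only share thus depends on the length of the I-BET list. Inside gene bodies the next most frequent patterns were all 4 treatments with 1101 regions, I-BET and RANKL with 878, I-BET, untreated and RANKL with 618, and I-BET and untreated with 396. Regions listed with RANKL only numbered 117 and those in untreated cells only 63.

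Per Mb of interior, taken over all genes of known strand and not over hosts alone, the regions were densest near the 5' end. Strand was known for the host of 8852 regions, and their median distance from the 5' end was 20198 bp, with 20.3% within 5 kb and 49.6% within 20 kb. Per Mb of gene interior there were 37.7 regions at 1 to 2 kb from the 5' end, 20.5 at 5 to 10 kb, 12.7 at 20 to 50 kb and 4.31 beyond 100 kb. Gene-body regions with a peak in another treatment numbered 9.40, 6.56, 4.21 and 1.44 per Mb at the same distances. Both classes thinned out with distance, and the I-BET-only share of gene-body regions stayed between 73.3% and 80.1% over the 7 distance classes. Distances beyond 100 kb exist only in genes over 100 kb. Those genes had 0.629 I-BET-only regions per 100 kb, against 3.30 in genes up to 10 kb. Distance and gene length were not separated here, from either end.

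From the 3' end the profile was flatter, and the classes differed near it. At 1 to 2 kb from the 3' end there were 14.5 I-BET-only regions per Mb against 2.07 other gene-body regions, so that 87.6% were I-BET only. At 2 to 5 kb the values were 19.3 and 4.63 per Mb, or 80.6%, and beyond 100 kb they were 4.8 and 1.77, or 73.0%. The I-BET-only share thus fell with distance from the 3' end.

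**Figure D3:**
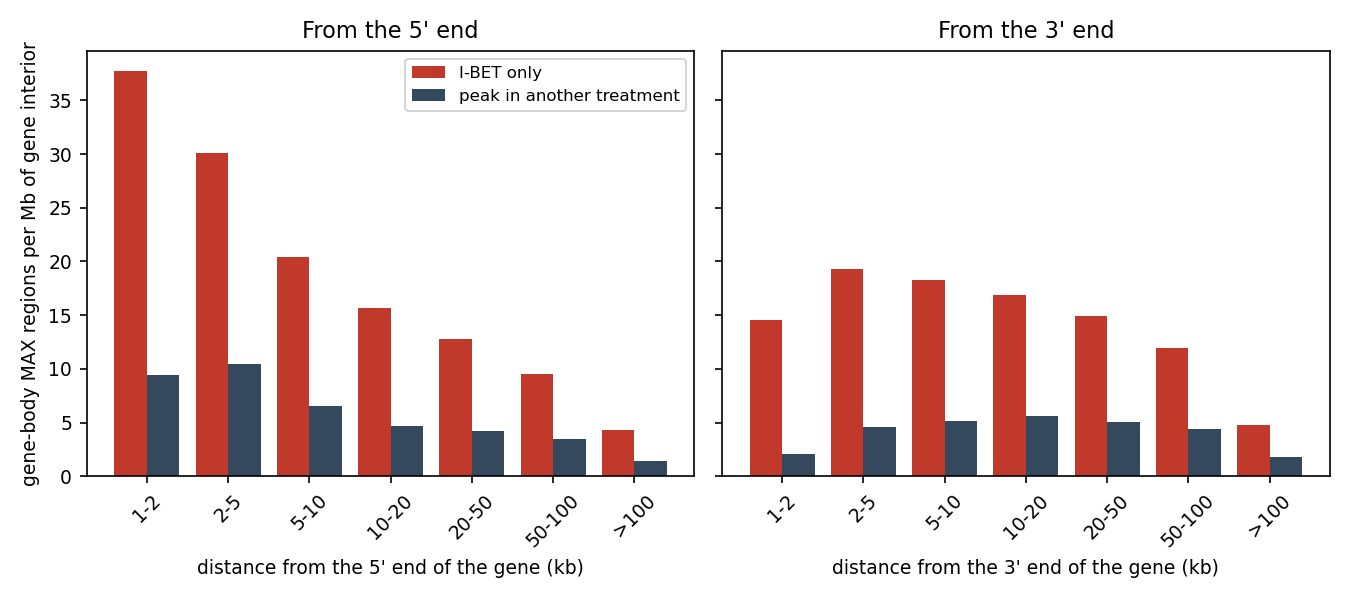
Gene-body MAX regions per Mb of interior of all genes of known strand, by distance from the 5' end (left) and the 3' end (right) in kb. I-BET-only regions are red and regions with a peak in another treatment blue. I-BET-only regions numbered 37.7 per Mb at 1 to 2 kb from the 5' end and 14.5 per Mb at the same distance from the 3' end.

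Distances from the regions to other MAX peaks and to each other are given as description. The rule left out overlap with the other lists, the lists differ in length, and no background distance was computed. The nearest MAX peak of another treatment was at a median of 13022 bp, with quartiles of 3503 and 38085 bp. It was within 1 kb for 1159 regions and within 100 bp for 58. The nearest other I-BET-only gene-body region was at a median of 7069 bp, and 22.2% had one within 1 kb and 55.4% within 10 kb. Around the 1 kb limit of the rule, the regions just inside lay in Gtf2a1 (1001 bp from an end, score 118), Nt5c3b (1004 bp, 76.7) and Faap100 (1004 bp, 85). Just outside were regions at Cox6a1 and Ccdc106, both 1000 bp from an end, with scores of 163 and 142.

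The regions lay in 5057 of the 21887 protein-coding genes (23.1%), or 26.2% of the 19304 genes longer than 2 kb, which alone can hold one. Of the hosts, 2725 held 1 region, 1073 held 2, 735 held 3 or 4, 429 held 5 to 9 and 95 held 10 or more. The 524 genes with 5 or more held 35.1% of the regions, and 143 regions lay in more than 1 gene. Hosts were long, with a median of 39.5 kb against 12.6 kb for the other genes. Among genes up to 10 kb 6.43% were hosts, and among genes over 100 kb 46.4% were. Per 100 kb of interior the order was the opposite, with 3.30 regions in genes up to 10 kb and 0.629 in genes over 100 kb, against 0.707 and 0.223 other gene-body regions.

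Hosts more often had MAX at their ends than other genes, in every treatment. A MAX peak within 1 kb of an end was listed with I-BET at 70.2% of hosts and 44.3% of other genes, with RANKL at 38.6% and 24.6%, with both agents at 26.5% and 16.3%, and in untreated cells at 32.2% and 21.1%. The I-BET end peaks come from the same library as the regions. The order held in each length class. With I-BET, 75.3% of hosts and 35.7% of other genes up to 10 kb had an end peak, and 61.6% and 27.2% over 100 kb. In untreated cells the shares were 36.5% and 17.2% up to 10 kb and 24.6% and 10.6% over 100 kb. A gene-body region with a peak in another treatment was held by 32.1% of hosts and 4.73% of other genes. For 1041 hosts (20.6%) the I-BET-only gene-body regions were the MAX regions listed in or at the gene in any treatment.

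The 10 genes with most regions were all over 100 kb long. Septin9, which encodes a septin GTPase of the cytoskeleton, held 28 over 163 kb, with scores from 54.3 to 417, and had no MAX peak at an end in any list. Its 4 gene-body regions with a peak in another treatment scored 217 to 510.3 and lay between 109 and 139 kb from the 5' end, whereas the I-BET-only ones ran from 1.31 to 160.3 kb. Zmiz1, a coactivator gene of the PIAS family, held 26 with scores from 52.7 to 509, beside 6 others of 164 to 974. Runx1, a master factor of blood cell formation, held 23 with scores from 58.3 to 357 and a median of 83.3, beside 6 others of 71 to 625 with a median of 390.3. In these 3 genes the I-BET-only regions were thus more numerous and lower in median score, with overlapping score ranges. They were spread over most of the gene. The other regions were also widely spread in Zmiz1 (2.56 to 183 kb from the 5' end) and Runx1 (2.46 to 150 kb).

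The other genes with most regions were 2900026A02Rik with 25, Hivep3 (a zinc finger factor that restrains bone formation) with 23, Gse1 with 22, Nav2 (a neuron navigator) with 22, Mtss1 (an I-BAR protein of the actin cortex) with 20, Zfp469 with 20 and Abr (a regulator of Rac) with 19. All 10 also held a gene-body region with a peak in another treatment, against 32.1% of all hosts of any length. At an end, 7 of the 10 had a MAX peak with I-BET, 3 with both agents, and 0 with RANKL or in untreated cells. Among all hosts over 100 kb the shares were 61.6% with I-BET, 21.5% with both, 30.5% with RANKL and 24.6% in untreated cells.

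Laptm5 and Lmna, chosen after their values were seen, show how the regions lay in shorter genes. Laptm5, which encodes a lysosomal membrane protein of blood cells, held 9 regions between 2.31 and 10.8 kb from its 5' end and no other gene-body MAX region, with scores from 45.3 to 224. Lmna, which encodes the nuclear lamins A and C, held 9 with scores from 74.3 to 205, around 4 others of 409 to 764. Prex1, a Rac exchange factor gene, held 16 with scores of 54.0 to 330.3, beside 1 other of 289.8.

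**Figure D4:**
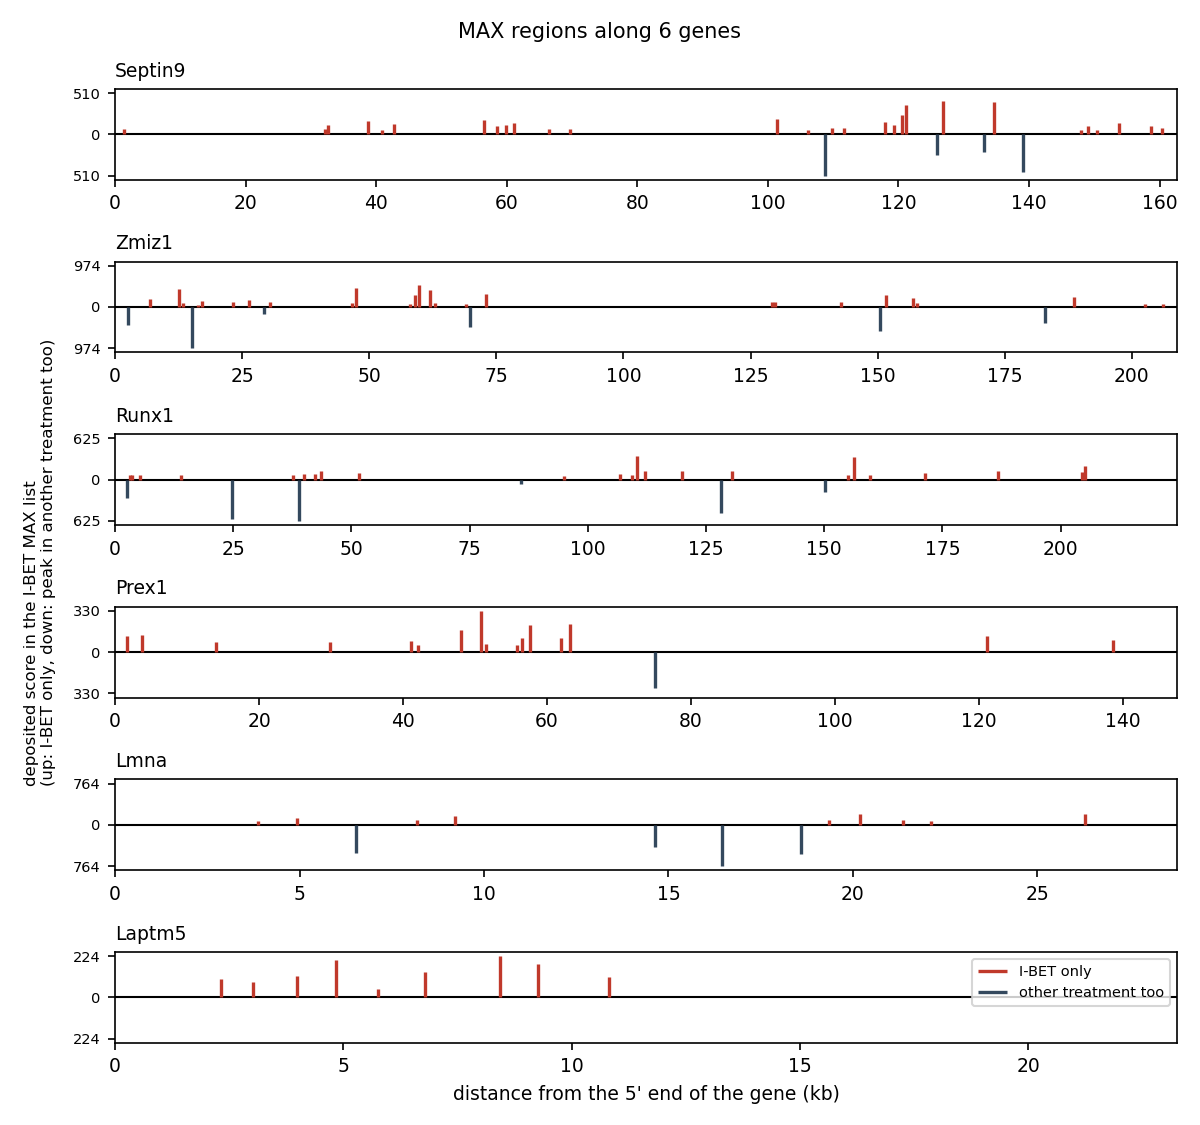
MAX regions along 6 genes, drawn from the 5' end to the 3' end in kb. Each line is a region with its deposited score in the I-BET list as height, upwards for I-BET-only regions and downwards for regions with a peak in another treatment; Septin9 held 28 and 4, Runx1 23 and 6, and Laptm5 9 and 0.

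Per length, short genes led. Among genes with at least 4 regions, Fxyd2, a small regulatory subunit of the sodium pump, had 70.0 per 100 kb of interior (6 regions). Dnaaf3, an assembly factor for ciliary dynein, had 52.9, Tapbp, the tapasin of MHC class I loading, 51.2, and Qprt, an enzyme of NAD synthesis, 48.9. The kinase gene Dapk3 had 48.7, the MAP kinase phosphatase gene Dusp4 48.6, Plekho1 46.8, the small GTPase gene Rhog 44.5, Csrnp1 43.2 and Slc8b1, a mitochondrial sodium-calcium exchanger, 43.2. Over all protein-coding genes the density was 1.12 per 100 kb. At an end, 8 of these 10 genes had a MAX peak with I-BET and 4 had one in untreated cells, and 2 held another gene-body MAX region. Among all hosts the shares were 70.2%, 32.2% and 32.1%.

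Among regulators of the lineage and of MYC and BET function, 12 that held at least 1 of the regions are described. Spi1, which encodes PU.1, held 7 over 33.4 kb, Nfatc1, the master factor of osteoclasts, 8, and Mitf, a factor of osteoclasts and lysosomal genes, 8. Tnfrsf11a, the gene of the RANKL receptor RANK, held 6, and Csf1r, the receptor of M-CSF, 3. Bcl6 held 4 and Irf8 and Prdm1 1 each, all repressors or lineage factors that set the balance between macrophages and osteoclasts. Myc held 2, and Max and Brd2 1 each. All 12 had a MAX peak at an end with I-BET, 7 with RANKL, 5 with both and 5 in untreated cells. Over all hosts the shares were 70.2%, 38.6%, 26.5% and 32.2%.

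In Tnfrsf11a the 6 regions scored 45.3 to 368, and the highest lay 9894 bp from the 5' end (chr1:105790206-105790929). Nfatc1 had scores of 56.3 to 296, beside 3 other gene-body regions of 381 to 607. Csf1r had 69.3 to 228, beside 1 other of 927, and Mitf had 70.3 to 224, beside 5 others of 129 to 434. Bcl6 had 68.0 to 152 and no other gene-body MAX region. In Nfatc1 and Csf1r every I-BET-only region scored below the others in the gene, whereas in Mitf the 2 ranges overlapped.

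The labelled cell type was checked on 9 macrophage and monocyte genes. With I-BET 8 of them had a MAX peak at an end, against 50.3% of all protein-coding genes, the exception being Adgre1, which had none in any treatment. Of the 9, 7 held I-BET-only gene-body regions, against 23.1% of all genes: Spi1 7, Csf1r 3, Lyz2 2, and Mrc1, Fcgr1, Tyrobp and Itgam 1 each. Cd68, at 1.96 kb too short to hold one, had end peaks in all 4 treatments. A MAX peak does not measure expression, so these counts bear on the label only indirectly. The count of 7 rests on regions that the rule chose and is description. The shares of all genes are not weighted to the lengths of the markers. End peaks of markers of other cell types are not set beside them.

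Gene lists of 20 kinds were set beside all protein-coding genes weighted to the same gene lengths. Of the 15 lists for processes and for the lineage, 13 held a larger share of hosts than all genes of their length. In the 5 lists for other cell types the share was lower for neuronal, hepatocyte and fibroblast and osteoblast genes and close to all genes for lymphocyte and for neutrophil, mast and dendritic cell genes. Per 100 kb of interior, 14 of the 15 lists had more I-BET-only gene-body regions than all genes (1.12), and all 15 had more gene-body regions with a peak in another treatment than all genes (0.361). Apart from ribosome biogenesis, with 1.01 I-BET-only regions per 100 kb, these 15 lists thus exceeded all genes in both classes of region. Of the 5 lists for other cell types, 1 exceeded 1.12 (neutrophil, mast and dendritic cell genes, 1.26) and 0 exceeded 0.361. These densities over all genes are not weighted to the lengths of a list. For I-BET-only regions density was 3.30 in genes up to 10 kb, 2.39 at 10 to 30 kb and 0.629 over 100 kb. The lists are described by counts, and no test was made.

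The share of hosts was highest in signalling genes. Of 65 genes of kinase and phosphoinositide signalling, 54 were hosts (83.1%, against 40.4% of all genes of that length), with a median of 2.58 regions per 100 kb against 0 over all genes. Rptor, the raptor subunit of mTORC1, held 18, the phosphatase gene Ptpre 11, the protein kinase C gene Prkch 9 and the diacylglycerol kinase gene Dgkz 8. Of 61 small GTPase regulators, 48 were hosts (78.7% against 41.2%), led by Prex1 with 16, the exchange factor gene Arhgef7 with 12, Arap1 with 11 and Arhgap22 with 10. Of 63 genes of the actin cytoskeleton and integrin adhesion, 41 were hosts (65.1% against 36.5%), led by Pxn with 15, the non-muscle myosin gene Myh9 with 13, Myo1e with 12 and the adhesion kinase gene Ptk2b with 11.

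Lineage genes also had a larger share of hosts than all genes of their length. Of 40 macrophage identity genes 23 were hosts (57.5% against 24.6%), with 4.97 regions per 100 kb of interior beside 1.91 other gene-body regions. They were led by Runx1, by the scavenger receptor gene Lrp1 with 14, by Spi1 with 7 and by the fractalkine receptor gene Cx3cr1 with 4. Of 38 osteoclast genes 23 were hosts (60.5% against 29.1%), with 4.43 per 100 kb beside 1.04 other gene-body regions. The tetraspanin gene Cd9 held 9, and Sbno2 (an osteoclast fusion factor), Nfatc1 and the phospholipase gene Plcg2 held 8 each. Of the gene-body MAX regions in osteoclast genes 81.0% were I-BET only and in macrophage genes 72.2%, against 75.6% over all genes.

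Of 40 NF-kB and inflammatory genes 16 were hosts (40% against 21.2%), with 7.60 per 100 kb. Irak2, a kinase of Toll-like receptor signalling, held 14, the A20-binding inhibitor gene Tnip1 11, the NIK kinase gene Map3k14 8 and the inhibitory kinase gene Irak3 5. Of 47 interferon and antigen presentation genes 21 were hosts (44.7% against 22.8%), led by Irf2 with 5, Tapbp with 4, Jak1 with 4 and Irf1 with 3. Of 56 lysosome and autophagy genes 30 were hosts (53.6% against 26.4%), led by Mitf with 8, the autophagy gene Uvrag with 8, the saposin gene Psap with 5 and Tfeb, a master factor of lysosomal genes, with 5.

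Of the 13 genes of the MYC, MAX, MXD and MLX network, 10 were hosts (76.9% against 24.0%), with a median of 4.34 per 100 kb. Mxi1, which encodes a repressive MAX partner, held 7, Mycn 3, Myc 2 and Mxd1, another repressive partner, 2. Chromatin remodelling and histone modification genes had 37 hosts of 65 (56.9% against 38.9%), among them Arid1b of the BAF complex with 14, the chromatin remodeller gene Chd9 with 11 and the DNA methyltransferase gene Dnmt3a with 10. E-box factors and clock genes had 16 hosts of 32 (50% against 30.6%), in which Arntl, Npas2, Mitf and Tcf4 held 8 each. Cell cycle and DNA replication genes had 16 hosts of 44 (36.4% against 25.3%), led by Ccnd3 with 7, Cdk6 with 6, E2f2 with 4 and Ccnd1 with 2.

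Ribosome biogenesis and transcription elongation genes were hosts about as often as all genes of their length. Of 55 ribosome biogenesis genes, a class known as MYC targets, 11 were hosts (20% against 23.5%), with 1.01 per 100 kb. Polr1a, the large subunit of RNA polymerase I, held 2, and Nop56, Nol6 and Ddx56 held 1 each. Of 47 genes of BET proteins and transcription elongation 13 were hosts (27.7% against 31.1%), led by the super elongation complex genes Aff1 with 7 and Ell with 5, by the Mediator gene Med24 with 3 and by Mllt1 with 3. Cytosolic ribosomal protein genes are short, and 7 of 57 were hosts (12.3% against 5.30%), with 2 regions in Rpl3 and 1 each in Rpl32, Rpl35 and Rps4x.

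Of 31 neuronal genes, most of them long, 6 were hosts (19.4% against 36.8%), with 0.0444 per 100 kb. Rbfox3 and Dlg2 held 2 each and Grin1, Cntn4, Csmd1 and Lrp1b 1 each. Of 31 hepatocyte genes 3 were hosts (9.68% against 20.3%), namely Ambp, Hnf4a and Ass1. Of 22 fibroblast and osteoblast genes 2 were hosts (9.09% against 28.0%), with 5 regions in Runx2 and 1 in Pdgfrb. Of 21 lymphocyte genes 5 were hosts (23.8% against 25.8%), led by the B-cell factor gene Bach2 with 8 and Gata3 with 2, and of 21 neutrophil, mast and dendritic cell genes 3 were (14.3% against 17.0%), namely Csf3r, Zbtb46 and Flt3.

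**Figure D5:**
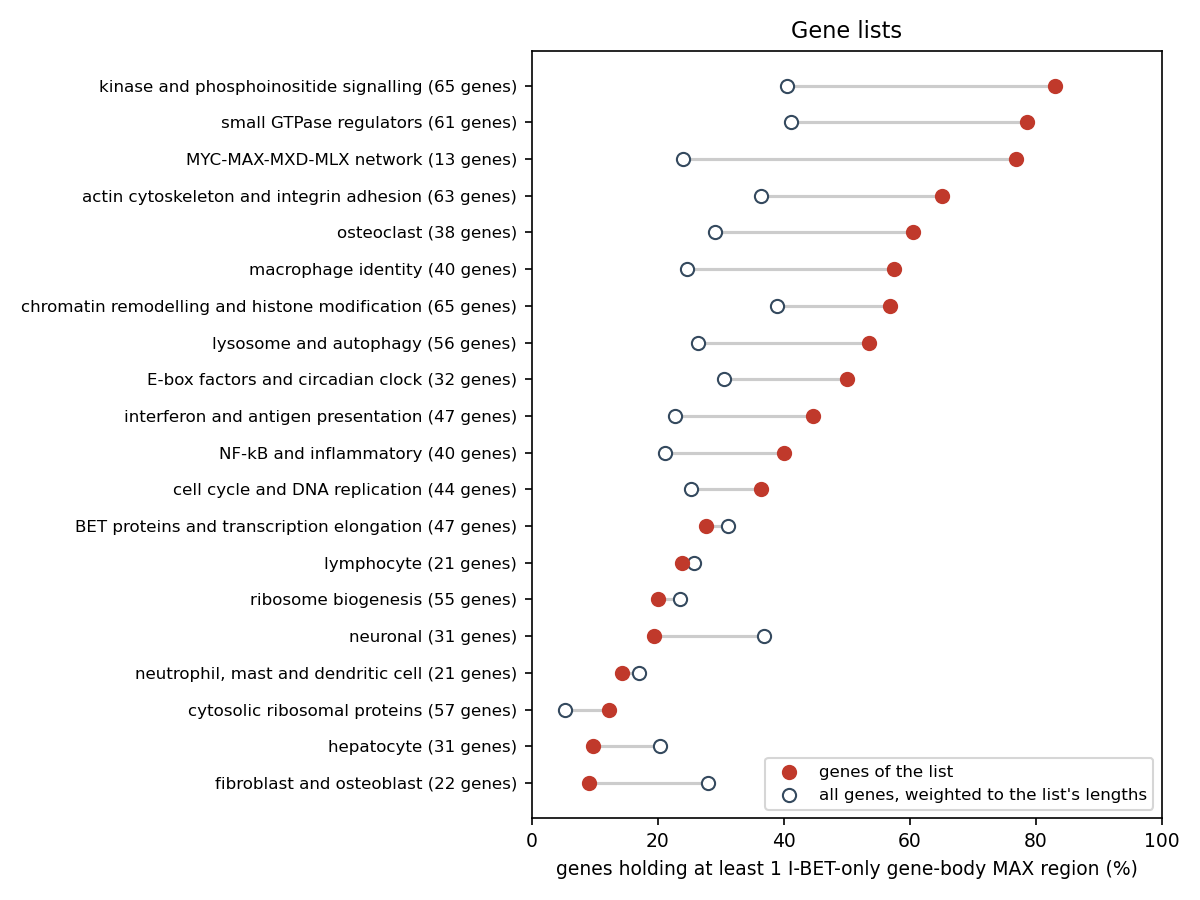
Share of genes, in percent, holding at least 1 I-BET-only gene-body MAX region in each of 20 gene lists (filled) beside all protein-coding genes weighted to the lengths of the list (open). Kinase and phosphoinositide signalling reached 83.1% against 40.4%, and neuronal genes 19.4% against 36.8%.

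Few of the regions overlapped a MYC peak. The MYC lists were not used by the rule, and they held 136 peaks with I-BET, 299 with RANKL, 11 with both and 312 in untreated cells. Of the 11073 regions, 6 overlapped a MYC peak of any treatment (0.0542%, 0.0199 to 0.118%). Of the 3610 gene-body regions with a peak in another treatment 82 did (2.27%, 1.81 to 2.81%), and of the 1101 of all 4 treatments 76 did (6.90%, 5.48 to 8.56%). By treatment, 5 regions overlapped a MYC peak of I-BET cells and 4 one of untreated cells. With RANKL, and with RANKL and I-BET, 0 did, which allows a share of up to 0.0271%, taken as 3 counts of 11073. The pooled shares include MYC lists of treatments in which, by the rule, the regions had no MAX peak. With the MYC list of I-BET cells alone, the share was 0.0452% (0.0147 to 0.105%) at the regions. It was 0.166% (0.0610 to 0.361%) at other gene-body regions and 0.182% (0.0220 to 0.655%) at those of all 4 treatments. These intervals overlapped. Among I-BET-only regions elsewhere, 0.0498% at gene ends and 0.168% outside genes overlapped a MYC peak of any treatment.

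In Il31ra, a cytokine receptor gene, the region with MYC (chr13:112578044-112578408, score 182) overlapped an 81 bp MYC peak of I-BET cells and a 210 bp MYC peak of untreated cells. Camk1d, a calmodulin-dependent kinase gene, and Arhgap21, a GTPase-activating protein gene, also overlapped a MYC peak in both treatments. Gnb1l and Acacb, the mitochondrial acetyl-CoA carboxylase gene, did so with I-BET alone. The Acacb region scored 43 and ranked 36711 of 36785 in the MAX list, while its MYC peak ranked 30 of 136. The MYC peaks of I-BET cells at these regions were 66 to 91 bp wide and those of untreated cells 169 to 268 bp. Of the hosts of the 6 regions, 4 had a MAX peak at an end with I-BET and 0 had one in untreated cells, against 70.2% and 32.2% of all hosts.

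Some regions overlapped non-coding genes inside the hosts. Of the 11073 regions, 777 overlapped long non-coding RNA genes, 17 microRNA genes, 5 tRNA genes and 4 snoRNA genes. These overlaps were not counted for other MAX regions, so the counts show nothing particular to the regions. An end of a gene that is not protein-coding lay within 1 kb of 5.27% of the regions. For gene-body regions with a peak in another treatment that share was 7.20%. The microRNA genes included Mir34b, of a family induced by p53, in a region that lay in both Btg4 and Hoatz (score 189), Mir1905 in Mex3a (417), Mir330 in Eml2 (132), Mir700 in Rcan3 (158) and Mir149 in Gpc1 (47.3). Whether a region bears on the host or on the non-coding gene was not tested.

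The regions were unevenly spread over chromosomes. Chromosome 11 had 19.8 per Mb of gene interior and 5.38 other gene-body regions, the highest of both classes, and chromosome X had 2.62 and 0.615. Chromosome Y had 0 of either. The other chromosomes lay between 7.32 on chromosome 18 and 14.5 on chromosome 7. The 2 classes thus followed the same order at these extremes.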

How the data were processed

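The authors deposited 8 peak lists, for MYC and MAX at 4 treatments, each from 1 library. Each row holds a position and a score, which is the authors' deposited value per peak and joins calls of 3 call sets whose nature is not given in the sources used here. FastQC, Bowtie2 2.3.4.1, MACS2 2.1.1.20160309 and the build mm10 (GRCm38) are named per the submitters' processing notes. Calling thresholds are not given either, and the 4 input libraries were not analysed here. Starts were raised by 1, taking the lists as BED.

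Overlap means at least 1 bp. The 4 MAX lists were merged, and positions were compared with 21887 protein-coding genes of the RefSeq table for GRCm38.p6, the assembly of mm10. The regions and gene lists were chosen with earlier results of these data known. Strand came from the RefSeq start table and was known for 17492 genes. Sequence was examined in those start windows in place of windows centred on the regions, and exons and introns were not analysed here. Of 850 list entries 849 matched the table. All genes were weighted to the lengths of a list over 20 length groups.

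Genes were named by a rule: hosts of the 10 highest-scoring, the 5 widest and the MYC-overlapping regions, the 10 genes with most regions and the 10 densest with at least 4, up to 4 genes per list (up to 6 for other cell types), a set of regulators, 9 markers and 3 regions on each side of the 1 kb limit. Other genes, including the microRNA genes and some of the printed windows, were chosen after their values were seen. Some items that the rule names are not reported here.

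Alternatives covered other limits to gene ends, merging of peaks up to 500 bp apart, stricter scores, equal list lengths, ends of any gene and distance to other MAX peaks. Distance from start windows was added after the data were seen. Intervals were computed with scipy 1.17.1, tables with pandas 2.3.3 on numpy 2.4.6 in Python 3.11.15, and figures with matplotlib 3.10.9. The code was checked against bedtools 2.31.1, with 0 differences over the 11073 regions, and tested on simulated data.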

Additional observations from a re-analysis of the deposited data

How the results depend on the processing

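The share of I-BET-only regions inside gene bodies (44.6%) became 48.7% at more than 0.5 kb from gene ends, 37.7% at more than 2.5 kb, 37.6% above the median rank of the I-BET list, 27.6% with as many top peaks as the untreated list, 42.3% with ends of genes of any biotype, 39.9% without regions within 1 kb of a MAX peak of another treatment and 39.9% without regions within 1 kb of a start window, the last added after the data were seen. In the same order the median distance to the nearest gene end (10855 bp) became 9170, 14340, 10422, 8142.5, 7727, 11347 and 11701 bp, and it was 11801 bp when peaks up to 500 bp apart were merged.

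The peaks above the median rank left 2830 regions in 2054 genes. Equal numbers of peaks left 302 regions in 293 genes, of which 0 regions overlapped MYC and 30.4% of hosts had an end peak in untreated cells, against 32.2%. These fewer regions follow from the shorter lists. With them the macrophage list had 25% (10 of 40) and 2.5% (1 of 40) hosts, against 9.38% and 1.34% of all genes, not weighted to length. With equal numbers of peaks the macrophage share thus rests on 1 gene, and its interval (0.0633 to 13.2%) includes 1.34%. The neuronal list had 3.23% (1 of 31) and 0. Ribosome biogenesis had 5.45% (3 of 55) and 1.82% (1 of 55), and 9.09% (5 of 55) against 19.1% of all genes at 2.5 kb. The CACGTG share ran from 5.51 to 7.46% over the alternatives that gave a value. Leaving out I-BET peaks under 200 bp changed nothing, since the narrowest region was 203 bp. No paired analysis was possible because each antibody and treatment had 1 library. Whether regions missing from the 3 other MAX lists had signal below the thresholds of those lists was not tested.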
